A study of Homo sapiens with 8 samples.

Results

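The interferon-stimulated and MHC class I genes are the genes that a cell turns on in an antiviral state and those with which it shows peptides of its proteins to T cells. They were chosen from a list of 51 symbols, 35 of interferon-stimulated genes and 16 of the MHC class I pathway, and each was read from 1 probe set, the brightest of its symbol by the mean of all 8 arrays, with no filter on brightness. Of the 51, 30 had a probe set named with their symbol, 26 interferon-stimulated and 4 MHC class I, among 14884 symbols in all. The other 21 were not analysed here: STAT2, OAS1, OAS2, OAS3, MX1, CMPK2, IFI6, IFI27 and PARP9 of the first kind, and HLA-B, HLA-C, HLA-E, HLA-F, TAP1, TAP2, PSMB8, PSMB9, PSMB10, PSME1, PSME2 and NLRC5 of the second.

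The study treated 2 human liver lines with CM272, a reversible dual inhibitor of G9a, a histone H3 lysine methyltransferase encoded by EHMT2, and DNMT1, the maintenance DNA methyltransferase. Its question was how the transcriptome of each cell type responds when both enzymes are inhibited together. LX2 is an immortalised line of hepatic stellate cells, the liver cells that make scar collagen, and HepG2 is a hepatocellular carcinoma line. The groups were LX2 control and HepG2 control, given 0.1% DMSO as the vehicle for 48 h, and LX2 CM272 and HepG2 CM272, given 400 nM CM272 for 48 h, with 2 arrays in each. Both lines were plated in 6-well plates at 200000 cells to a well, and all groups received penicillin and streptomycin. HepG2 was in medium with 10% serum and LX2 in medium with 2%, so line and serum cannot be told apart. Each cell type was 1 line, and the labels do not say whether replicate arrays stem from separate cultures; p-values then measure only the spread between these samples, which may be technical.

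Type I interferons bind a receptor whose kinases, JAK1 and TYK2, pass the signal on by phosphorylation. A complex with IRF9 then binds the interferon-stimulated response element in the promoters of antiviral genes. Cells make interferon, and can raise some of the same genes directly, when sensors such as RIG-I, MDA5 or cGAS meet foreign or misplaced nucleic acid and pass the signal through MAVS or STING to TBK1, IRF3 and IRF7. MHC class I molecules present peptides that the proteasome cuts, TAP carries into the endoplasmic reticulum, tapasin helps to load and ERAP1 and ERAP2 trim. Interferon is known to raise many genes of that pathway too.

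Values are log2 expression values, on which a difference of 1 is a doubling. Probes differ in how brightly they bind, so levels are compared between arrays for 1 gene and never between genes. Over all symbols the replicate arrays of a group correlated at r = 0.978 to 0.993, and the median absolute difference between replicates was 0.26 for LX2 CM272 and 0.13 to 0.16 for the other groups. The labelled lines matched their markers. ALB, the gene of albumin, read 13.24 and 13.25 in HepG2 control and 3.52 and 3.65 in LX2 control, and VIM, the gene of the mesenchymal filament vimentin, read 3.73 and 3.60 in HepG2 control and 10.16 and 10.22 in LX2 control. All 8 measured hepatocyte markers of 10 listed were higher in HepG2 control. Of 5 measured stellate and mesenchymal markers of 10 listed, 4 were lower there and DES was not, and in LX2 CM272 raised DES by 1.25 and lowered LOX, at -1.01. Transcripts of the drug targets and their partners, EHMT2, EHMT1, DNMT1 and UHRF1, passed in neither line. Of 12 leukocyte markers listed, 4 were measured, NKG7, LYZ, CD68 and CD163. LYZ was higher in HepG2 control by limma, at 12.37 and 12.22 against 2.87 and 2.83 in LX2 control. CD68 was lower there, at -1.99, and NKG7 and CD163 did not pass between the lines. With CM272, 0 of the 4 changed in either line by limma's test, where 5.11% of all symbols did in LX2 and 0.0134% in HepG2. The part of these marker changes in the results was not tested. In bulk RNA, fewer cells of a type and less RNA per cell cannot be told apart.

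**Figure D1:**
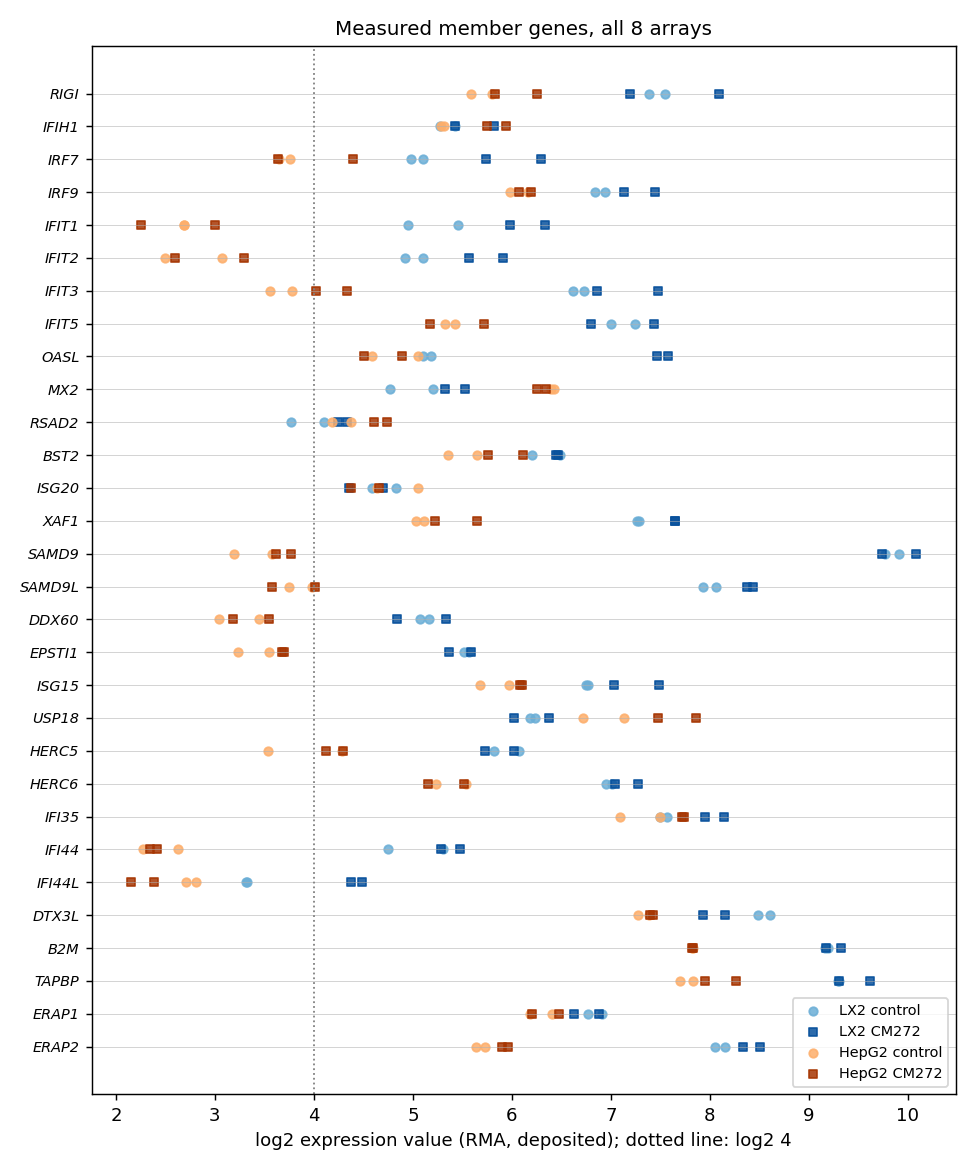
Log2 expression value (x axis) of the 30 measured genes (rows) in all 8 arrays, circles for control and squares for CM272, blue for LX2 and orange for HepG2; the dotted line marks a log2 value of 4. The blue points of OASL and IFI44L split by treatment, and most rows have their orange points to the left of the blue ones, SAMD9 by the widest gap.

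CM272 raised 2 of the 30 genes in LX2, OASL and IFI44L, and 0 genes fell (limma, Benjamini-Hochberg adjusted p under 0.05 over 14884 symbols). The background was 2.43% of all symbols called higher and 2.67% called lower in this comparison. The log2 difference of the 30 genes had a median of 0.30, against 0.0040 over all symbols, and it was above 0 in 22 of the 30 (73.3%), against 50.4% of all symbols. The spread between single arrays in the genes' median level, combined over both groups, was 0.22 (SD). The median difference is of means of 2 arrays, so this SD does not test it. Both CM272 arrays lay above both LX2 control arrays for 16 of the 30 genes, where 23.8% of all symbols did so, and below both for 1, DTX3L, where 25.4% did. TAPBP is among the 16 only by the third decimal, and the arrays of its other probe sets overlapped. At an unadjusted p under 0.05, 13 of the 30 differed (43.3%), 12 of them higher, against 21.8% of all symbols. The first LX2 CM272 array lay above both controls for 17 genes and the second for 24. With only symbols over a log2 value of 4 in both arrays of a group, 8.42% of all symbols passed in either direction, and IRF7 was added to the calls. IFI44L met that filter only through the LX2 CM272 arrays, where it is high, so its call under the filter is no support for its rise. The calls moved with single arrays: OASL alone passed without LX2 control replicate 1 and again without LX2 control replicate 2, and without LX2 CM272 replicate 2 there were 4 calls higher, with IRF7 and ISG15 added, and 1 lower, DTX3L. That last fit called 13% of all symbols, so its 5 calls among the 30 genes are close to the background.

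In HepG2, 0 of the 30 genes passed the same limma test, where 0.0134% of all symbols did, 2 of 14884. The median difference was 0.20, against -0.0082 over all symbols, and it was above 0 in 21 of the 30 (70.0%), against 48.5%. The spread between single arrays in the genes' median level was 0.29 (SD) here, and again does not test a difference of means of 2 arrays. Both CM272 arrays lay above both controls for 14 genes, with 20.8% of all symbols doing so, and below both for 2, MX2 and IFI44L, with 25.4%. At an unadjusted p under 0.05, 7 of the 30 differed (23.3%), against 10.1% of all symbols: IFIH1, IFIT3, RSAD2, BST2, USP18 and IFI35 higher and IFI44L lower. The 95% interval lay within a doubling or a fall of the same size for 29 of the 30 genes, and that of USP18 reached past a doubling. The interval lay within those bounds for 14044 of all 14884 symbols too, so this is near the background. In HepG2 control 10 of the 30 genes read at or under a log2 value of 4 in both arrays, and RMA compresses folds of dim probe sets.

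**Figure D2:**
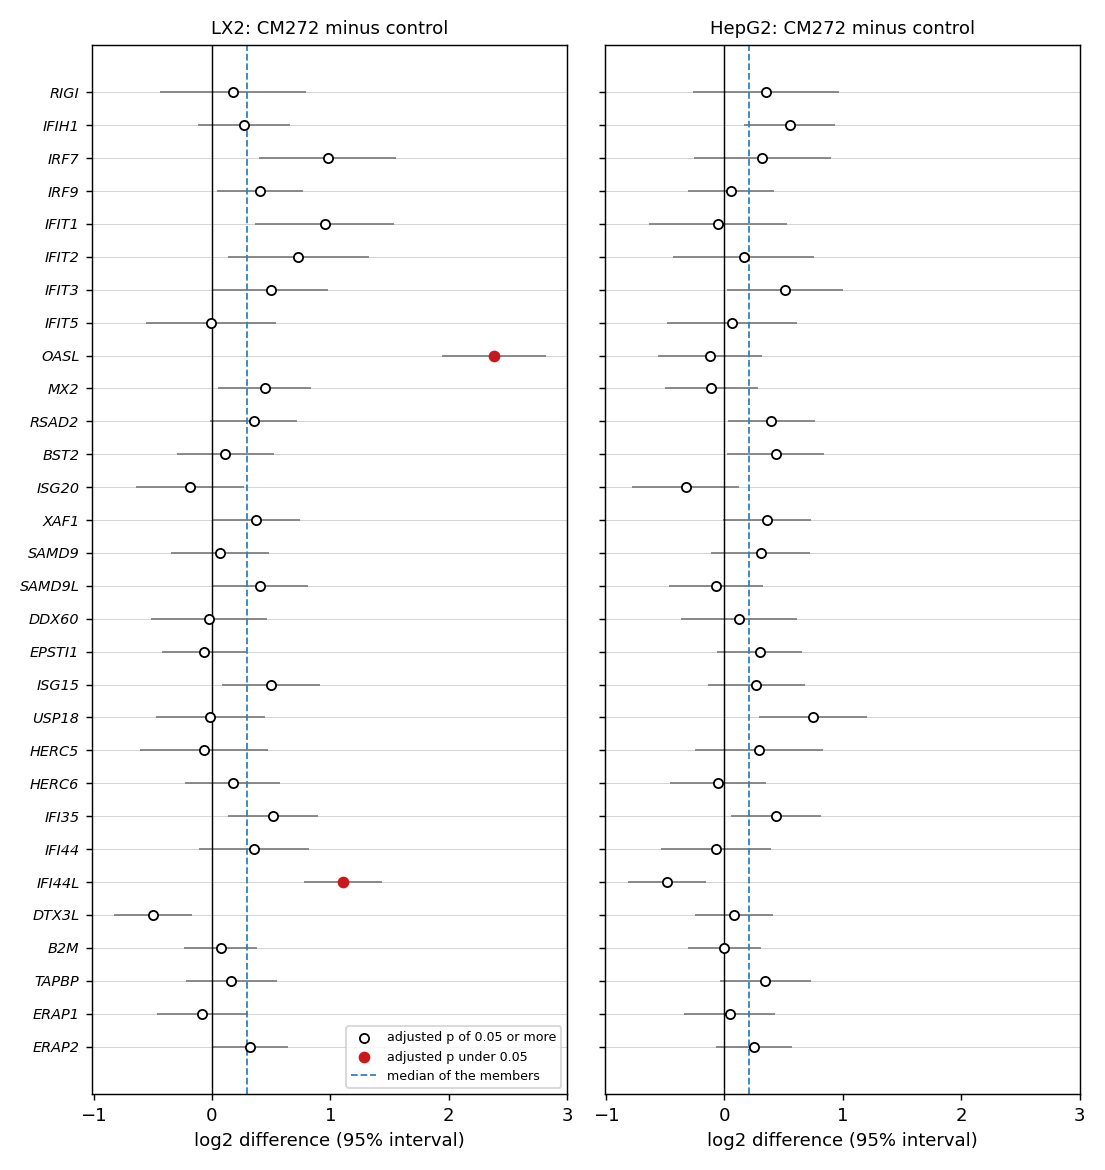
Log2 difference of CM272 minus control (x axis) with its 95% interval for the 30 measured genes (rows) in LX2 and HepG2; red points have an adjusted p under 0.05 and the dashed line is the genes' median. OASL and IFI44L are the 2 red points, both in LX2, and the medians are 0.30 in LX2 and 0.20 in HepG2.

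OASL, an oligoadenylate synthetase-like protein that enhances RIG-I signalling and lacks the synthetase activity of its relatives, had the largest difference of the 30 genes in LX2. Its probe set (16771417) read 5.19 and 5.10 in the LX2 control arrays and 7.58 and 7.47 in the LX2 CM272 arrays. In HepG2 it read 4.59 and 5.05 in control and 4.89 and 4.51 under CM272. The treated LX2 arrays stood well above all 6 others, which lay between 4.51 and 5.19. The LX2 difference was 2.38 (SE 0.19), a 5.21-fold rise (95% interval of the log2 difference 1.94 to 2.82; limma adjusted p = 5.78e-04). It ran from 2.33 to 2.44 over the alternatives. In those that kept all 8 arrays, other than the filter at log2 6, the limma adjusted p was 9.04e-05 to 0.00667. OASL met the filter at log2 6 only through the LX2 CM272 arrays, where it is high, so its call there is no support for its rise. The HepG2 difference was -0.12, with a 95% interval of -0.56 to 0.32. OASL was the only measured gene of its family, since OAS1, OAS2 and OAS3 were not analysed here.

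IFI44L, a gene widely used to mark an interferon response, was the second riser. Its probe set (16666485) read 3.33 and 3.31 in LX2 control and 4.37 and 4.48 in LX2 CM272, and the LX2 CM272 arrays were the only ones over a log2 value of 4. In HepG2 it read 2.71 and 2.81 in control and 2.39 and 2.16 under CM272, with both treated arrays below both controls. The LX2 rise was 1.11 (SE 0.15), with a 95% interval of 0.78 to 1.44 and a limma adjusted p of 0.007. No fold is given, since both LX2 control arrays read under a log2 value of 4. Without LX2 control replicate 1 the adjusted p was 0.0718, and without LX2 control replicate 2 it was 0.0953, with the difference at 1.12 and 1.10, and over the alternatives other than the brightness filters it otherwise ran from 0.00674 to 0.042. In HepG2 the difference was -0.49 (95% interval -0.81 to -0.16; limma adjusted p = 0.357). IFI44, its neighbour and paralogue on chromosome 1, did not pass in LX2. IFI44 read 4.75 and 5.30 in LX2 control, 5.28 and 5.47 in LX2 CM272, 2.28 and 2.63 in HepG2 control and 2.35 and 2.42 in HepG2 CM272. Its LX2 difference was 0.35 with a 95% interval of -0.11 to 0.82, and 1 treated LX2 array lay between the controls. IFI35, a protein that binds the interferon-induced partner NMI, differed by 0.51 in LX2 (adjusted p = 0.117) and 0.44 in HepG2 (adjusted p = 0.435), both by limma, with no overlap between treated and control arrays in either line. In LX2 it passed under 1 alternative, the filter at a log2 value of 6, a fit that called 18% of all symbols.

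The effect of CM272 itself differed between the lines for OASL and IFI44L. The HepG2 difference minus the LX2 difference was -2.50 (SE 0.28) for OASL, with a 95% interval of -3.12 to -1.88 and a limma adjusted p of 0.00671. It was -1.59 (SE 0.21) for IFI44L, with a 95% interval of -2.06 to -1.13 and a limma adjusted p of 0.015. IFI44L read under a log2 value of 4 in all but the LX2 CM272 arrays. Of the 30 genes these 2 passed with the lower effect in HepG2, where 0.403% of all symbols did, and 0 passed with the higher one, where 0.128% did. At an unadjusted p under 0.05, 6 of the 30 differed (20%), against 15% of all symbols, which is near the background. This test and the LX2 comparison use the same LX2 arrays, so neither supports the other. OASL missed the threshold without LX2 control replicate 1 (adjusted p = 0.0503) or replicate 2 (0.0675). IFI44L missed it without LX2 control replicate 1 (0.101) or 2 (0.114), HepG2 control replicate 1 (0.0815) or 2 (0.0885), or HepG2 CM272 replicate 2 (0.0897), and with the replicate number as a block (0.0612), all limma adjusted p-values.

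Most promoter windows of the measured genes held letters of the element that the interferon-activated complex binds. RefSeq promoter windows (build GRCh38.p14, 250 bases before to 50 after a start) were matched by symbol to 25 of the 30 genes, giving 31 windows. OASL, IRF7, IFIT2, MX2 and USP18 had none. The core of the interferon-stimulated response element, which is GAAA, any 2 bases and a further GAAA, read on both strands with overlapping matches counted, was found in 21 of the 31 windows (67.7%), against 1255 of 35116 windows of all genes (3.57%). The gamma-activated site core, TTCNNNGAA, which reads the same on both strands, was found in 5 of the 31 (16.1%), against 7.66% of all windows. HERC6, SAMD9L, RIGI, IRF9, XAF1 and IFI35 held no response element core in these windows. A match is a run of letters and says nothing of binding.

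The windows of 6 genes show what these cores look like, set by gene family, beside those of SAMD9 and SAMD9L, whose levels differed most between the lines. Each line gives the 200 bases that end just before the start, 5′ to 3′ in the direction of the gene, with the response element cores in capitals.
IFI44L, chr1:78620248-78620447, plus strand: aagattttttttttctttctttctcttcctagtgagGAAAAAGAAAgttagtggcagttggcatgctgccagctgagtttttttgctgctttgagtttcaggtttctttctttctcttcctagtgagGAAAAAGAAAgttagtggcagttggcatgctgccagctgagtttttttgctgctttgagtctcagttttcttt
IFI44, chr1:78649631-78649830, plus strand: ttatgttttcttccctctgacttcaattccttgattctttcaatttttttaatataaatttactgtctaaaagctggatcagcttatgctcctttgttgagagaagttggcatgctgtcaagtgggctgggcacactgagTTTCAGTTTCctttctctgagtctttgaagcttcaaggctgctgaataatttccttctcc
IFIT1, chr10:89392423-89392622, plus strand: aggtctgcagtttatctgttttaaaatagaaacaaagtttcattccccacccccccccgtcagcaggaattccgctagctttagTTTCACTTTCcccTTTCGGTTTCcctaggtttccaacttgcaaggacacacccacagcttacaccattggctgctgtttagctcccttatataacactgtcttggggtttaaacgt
IFIT3, chr10:89332329-89332528, plus strand: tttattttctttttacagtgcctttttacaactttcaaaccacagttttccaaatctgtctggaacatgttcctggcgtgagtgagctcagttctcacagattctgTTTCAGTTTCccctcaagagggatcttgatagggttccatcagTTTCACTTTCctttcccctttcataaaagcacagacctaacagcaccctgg
IFIT5, chr10:89414368-89414567, plus strand: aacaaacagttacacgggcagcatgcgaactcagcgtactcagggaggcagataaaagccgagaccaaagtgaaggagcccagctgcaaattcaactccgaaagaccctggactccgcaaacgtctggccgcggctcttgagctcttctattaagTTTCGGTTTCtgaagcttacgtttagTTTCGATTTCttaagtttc
ISG15, chr1:1013297-1013496, plus strand: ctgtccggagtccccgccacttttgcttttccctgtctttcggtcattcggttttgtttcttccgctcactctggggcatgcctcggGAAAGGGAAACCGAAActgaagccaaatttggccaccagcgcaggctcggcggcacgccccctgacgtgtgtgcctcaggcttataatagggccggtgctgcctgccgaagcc
SAMD9, chr7:93117980-93118179, minus strand: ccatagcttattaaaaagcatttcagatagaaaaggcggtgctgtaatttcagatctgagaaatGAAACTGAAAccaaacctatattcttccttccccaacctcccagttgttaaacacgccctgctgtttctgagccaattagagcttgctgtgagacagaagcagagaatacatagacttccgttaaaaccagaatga
SAMD9L, chr7:93148386-93148585, minus strand: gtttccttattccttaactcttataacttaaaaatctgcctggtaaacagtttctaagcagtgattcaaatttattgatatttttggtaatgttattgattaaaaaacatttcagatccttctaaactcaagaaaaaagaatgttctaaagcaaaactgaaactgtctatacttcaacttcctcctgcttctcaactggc

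The IFI44L window carries 2 copies of 1 run of 85 bases, which begin 189 and 98 bases before the start, 91 bases apart, and each copy holds 1 core, GAAAAAGAAA. The longest run it shares with the IFI44 window is 13 bases. IFIT1, IFIT3 and IFIT5 each hold 2 cores in the stretch shown, and none of these 3 genes passed the test with CM272 in either line. In ISG15 the 2 cores overlap. SAMD9 holds 1 core and its neighbour SAMD9L holds 0.

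Of the sensors and transcription factors, 0 of 4 measured genes passed with CM272 in either line. That is near the background, 5.11% of all symbols in LX2 and 0.0134% in HepG2. IRF7, the factor that amplifies interferon production, came nearest. It read 5.10 and 4.98 in LX2 control, 6.29 and 5.74 in LX2 CM272, 3.64 and 3.75 in HepG2 control and 4.40 and 3.64 in HepG2 CM272. Both treated LX2 arrays lay above both controls, while in HepG2 1 treated array was high and the other lay at the level of the controls. The LX2 difference was 0.98 (SE 0.26), with a 95% interval of 0.39 to 1.56 and a limma adjusted p of 0.0626. It passed in 5 of 16 alternatives, among them the filter at a log2 value of 4 (adjusted p = 0.0451) and the fit without LX2 CM272 replicate 2 (0.0368), over a range of 0.0368 to 0.298. IRF9, the DNA-binding part of the interferon-activated complex, read 6.84 and 6.94 in LX2 control, 7.45 and 7.13 in LX2 CM272, 5.99 and 6.16 in HepG2 control and 6.20 and 6.07 in HepG2 CM272. The treated LX2 arrays did not overlap the controls, with a difference of 0.40 and a limma adjusted p of 0.184. RIGI, which encodes the RNA sensor RIG-I, read 7.55 and 7.39 in LX2 control, 7.20 and 8.09 in LX2 CM272, 5.59 and 5.80 in HepG2 control and 5.83 and 6.26 in HepG2 CM272. Its treated LX2 arrays lay on either side of the controls, and both treated HepG2 arrays lay above theirs by a mean of 0.35. IFIH1, which encodes the sensor MDA5, differed by 0.27 in LX2 and 0.55 in HepG2 (limma adjusted p = 0.364).

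The IFIT proteins bind foreign RNA ends and block its translation, and 0 of the 4 passed with CM272 in either line. This too is near the background, 5.11% of all symbols in LX2 and 0.0134% in HepG2. IFIT1 read 5.46 and 4.95 in LX2 control, 5.98 and 6.33 in LX2 CM272, 2.68 and 2.68 in HepG2 control and 3.0 and 2.26 in HepG2 CM272. Both treated LX2 arrays were above both controls, and the treated HepG2 arrays straddled theirs. The LX2 difference was 0.95 (SE 0.26), with a 95% interval of 0.37 to 1.54 and a limma adjusted p of 0.0692, and it passed in 0 of 16 alternatives. IFIT2 read 5.10 and 4.92 in LX2 control, 5.57 and 5.91 in LX2 CM272, 2.49 and 3.07 in HepG2 control and 2.60 and 3.29 in HepG2 CM272. IFIT3, which stabilises the IFIT1 complex, read 6.62 and 6.73 in LX2 control, 6.86 and 7.48 in LX2 CM272, 3.78 and 3.55 in HepG2 control and 4.02 and 4.34 in HepG2 CM272. The treated LX2 arrays were above the controls for both genes, by 0.73 and 0.50, with limma adjusted p-values of 0.15 and 0.222. In HepG2 the arrays overlapped for IFIT2 and did not for IFIT3, which differed there by 0.51 (limma adjusted p = 0.475). IFIT5 read 7.0 and 7.24 in LX2 control, 6.80 and 7.44 in LX2 CM272, 5.42 and 5.33 in HepG2 control and 5.17 and 5.72 in HepG2 CM272, with overlap in both lines. The 4 genes lie in a row on chromosome 10 in the RefSeq gene order, IFIT2, IFIT3, IFIT1 and IFIT5, with IFIT1B between IFIT3 and IFIT1.

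Among the other antiviral effectors, 0 of 9 measured genes passed with CM272 in either line. Again the background was low, 5.11% of all symbols in LX2 and 0.0134% in HepG2. MX2, a GTPase that blocks nuclear entry of retroviral genomes, read 5.20 and 4.77 in LX2 control, 5.33 and 5.53 in LX2 CM272, 6.43 and 6.40 in HepG2 control and 6.35 and 6.25 in HepG2 CM272. Its treated arrays lay above the controls in LX2, by 0.45 (limma adjusted p = 0.177), and below them in HepG2, with a difference of -0.11 (95% interval -0.50 to 0.28). BST2, the tetherin that holds budding virus at the membrane, read 6.20 and 6.48 in LX2 control, 6.46 and 6.45 in LX2 CM272, 5.36 and 5.65 in HepG2 control and 5.76 and 6.11 in HepG2 CM272. Its arrays overlapped in LX2 and not in HepG2, where the difference was 0.43 (limma adjusted p = 0.472). XAF1, a proapoptotic interferon target, read 7.27 and 7.29 in LX2 control, 7.65 and 7.65 in LX2 CM272, 5.04 and 5.11 in HepG2 control and 5.22 and 5.64 in HepG2 CM272. Its treated arrays were above the controls in both lines, by 0.37 and 0.36. RSAD2, the antiviral enzyme viperin, differed by 0.35 in LX2 and 0.40 in HepG2, with no overlap in either line. ISG20, an RNA exonuclease, differed by -0.19 and -0.33.

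SAMD9 and its neighbour SAMD9L, which restrict poxviruses and growth, were read at very different levels in the lines and did not pass the test with CM272. SAMD9 read 9.77 and 9.91 in LX2 control, 9.74 and 10.08 in LX2 CM272, 3.19 and 3.58 in HepG2 control and 3.62 and 3.77 in HepG2 CM272. SAMD9L read 7.93 and 8.06 in LX2 control, 8.43 and 8.37 in LX2 CM272, 3.98 and 3.75 in HepG2 control and 3.58 and 4.01 in HepG2 CM272. Both treated LX2 arrays lay above the controls for SAMD9L, by 0.41 (limma adjusted p = 0.217), and overlapped them for SAMD9. DDX60, a helicase that aids RNA sensing, read 5.07 and 5.17 in LX2 control, 4.84 and 5.34 in LX2 CM272, 3.04 and 3.44 in HepG2 control and 3.18 and 3.55 in HepG2 CM272. EPSTI1 read 5.52 and 5.57 in LX2 control, 5.37 and 5.59 in LX2 CM272, 3.54 and 3.24 in HepG2 control and 3.70 and 3.68 in HepG2 CM272. For both, the LX2 arrays overlapped and the difference was under 0.1 in size.

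ISG15 is a ubiquitin-like protein that HERC5 attaches to new proteins and USP18 removes, and USP18 also holds back the interferon receptor. None of the 4 genes of this group passed with CM272 in either line, near the background of 5.11% in LX2 and 0.0134% in HepG2. ISG15 read 6.77 and 6.75 in LX2 control, 7.49 and 7.03 in LX2 CM272, 5.97 and 5.68 in HepG2 control and 6.10 and 6.08 in HepG2 CM272. The treated arrays were above the controls in both lines, by 0.50 in LX2 (limma adjusted p = 0.152) and 0.27 in HepG2. USP18 read 6.19 and 6.23 in LX2 control, 6.37 and 6.02 in LX2 CM272, 6.72 and 7.13 in HepG2 control and 7.48 and 7.86 in HepG2 CM272. Its treated arrays straddled the controls in LX2 and lay above them in HepG2. The HepG2 difference of 0.75 (SE 0.20) was the widest of the 30 genes there, with a 95% interval of 0.29 to 1.21 and a limma adjusted p of 0.311. The test of the difference between lines gave 0.76 for USP18 (limma adjusted p = 0.255). The human genome holds a near-identical partial copy of USP18, USP41, and whether the probes tell them apart was not tested. HERC5 read 5.82 and 6.07 in LX2 control, 5.73 and 6.02 in LX2 CM272, 4.29 and 3.53 in HepG2 control and 4.12 and 4.29 in HepG2 CM272. HERC6, its neighbour on chromosome 4, read 7.01 and 6.96 in LX2 control, 7.27 and 7.04 in LX2 CM272, 5.54 and 5.24 in HepG2 control and 5.15 and 5.51 in HepG2 CM272. The LX2 differences of these 2 genes were -0.071 and 0.17.

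DTX3L, a ubiquitin ligase that works with PARP9, was the 1 gene whose treated LX2 arrays both lay below the controls. It read 8.60 and 8.48 in LX2 control, 7.93 and 8.16 in LX2 CM272, 7.28 and 7.39 in HepG2 control and 7.43 and 7.40 in HepG2 CM272. The LX2 difference was -0.50 (SE 0.15), with a limma adjusted p of 0.0845. It passed as lower with a filter at a log2 value of 6, with an intensity trend in the variance model and without LX2 CM272 replicate 2, fits that called 18%, 8.45% and 13% of all symbols.

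None of the 4 measured MHC class I genes passed with CM272 in either line. Of all symbols 5.11% passed in LX2 and 0.0134% in HepG2, so 0 of so few genes is near the background. B2M, the light chain that all class I molecules share, read 9.19 and 9.16 in LX2 control, 9.17 and 9.33 in LX2 CM272, 7.82 and 7.83 in HepG2 control and 7.83 and 7.82 in HepG2 CM272. The arrays overlapped in LX2 and differed only in the second decimal in HepG2. The difference was 0.074 in LX2 (95% interval -0.23 to 0.38) and -0.0011 in HepG2 (95% interval -0.31 to 0.31). TAPBP, which encodes tapasin, read 9.30 and 9.30 in LX2 control, 9.62 and 9.30 in LX2 CM272, 7.69 and 7.83 in HepG2 control and 7.95 and 8.26 in HepG2 CM272. Its HepG2 difference was 0.35 (limma adjusted p = 0.536) with no overlap. The other probe sets of TAPBP, 2 of them with the same values in every array, gave LX2 differences of 0.14 to 0.16. In LX2 the second treated array of the kept probe set read 9.305, just above the higher control at 9.303. The LX2 arrays of the other TAPBP probe sets overlapped. ERAP1 read 6.91 and 6.77 in LX2 control, 6.63 and 6.89 in LX2 CM272, 6.41 and 6.18 in HepG2 control and 6.20 and 6.48 in HepG2 CM272, with overlap in both lines. ERAP2 read 8.05 and 8.15 in LX2 control, 8.33 and 8.51 in LX2 CM272, 5.63 and 5.73 in HepG2 control and 5.96 and 5.90 in HepG2 CM272. Its treated arrays lay above the controls in both lines, by 0.32 in LX2 (limma adjusted p = 0.228) and 0.25 in HepG2. Heavy chains, TAP and the immunoproteasome, among the best known targets of interferon, were not analysed here, so 4 genes stand for a pathway of 16.

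Between the untreated lines, most of the 30 genes were lower in HepG2 than in LX2. By limma, 23 of the 30 were lower in HepG2 control, where 34.8% of all symbols were, and 2 were higher, MX2 and USP18, where 16.0% were. OASL, IFI35, IFIH1, ISG20 and RSAD2 did not pass. Both HepG2 control arrays lay below both LX2 control arrays for 25 of the 30, where 51.7% of all symbols did so, and above both for 3, MX2, RSAD2 and USP18, where 27.4% did. The median of the 30 differences, HepG2 control minus LX2 control, was -1.45, at -1.47 for the interferon-stimulated genes and -1.45 for the MHC class I genes, against -0.21 over all symbols. Scaling moved that background: quantile normalization over the 8 arrays put the median of all symbols at 0.05 and that of the 30 genes at -1.16, and centring each array on its median put them at 0.11 and -1.12.

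**Figure D3:**
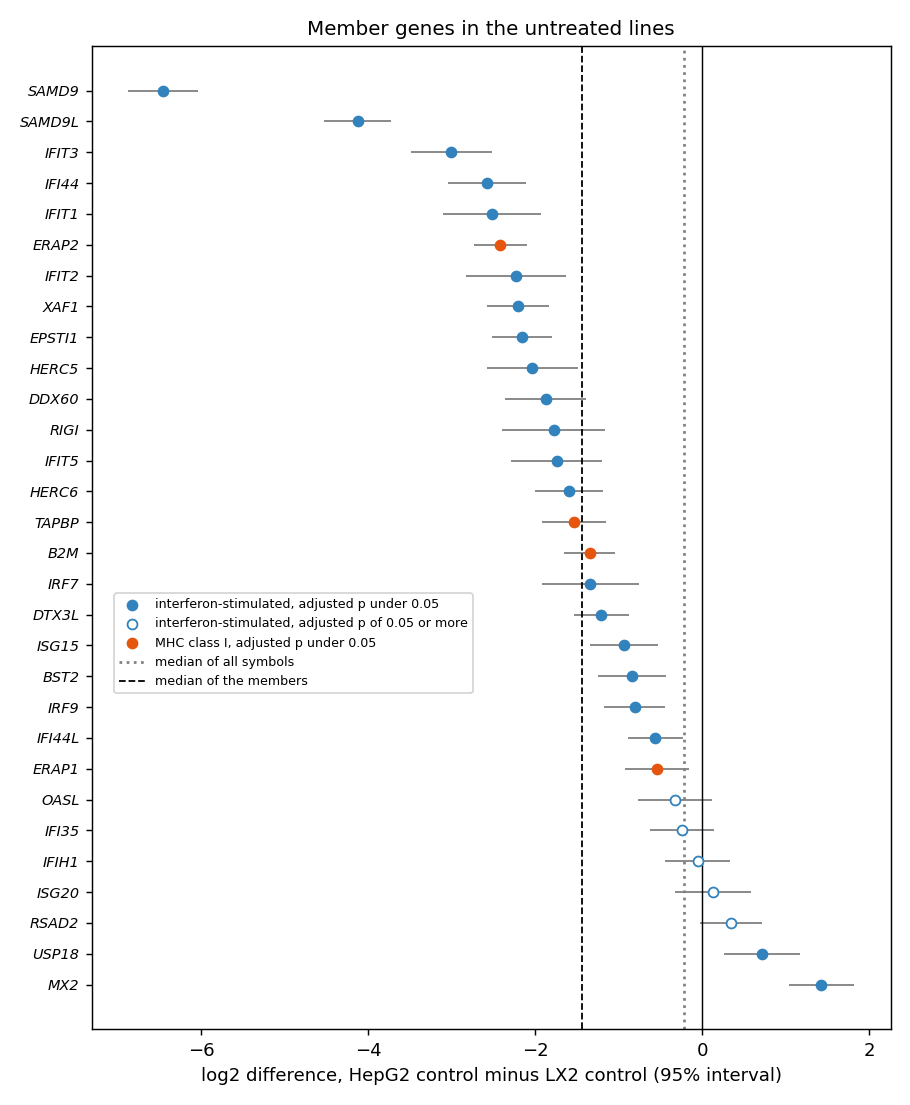
Log2 difference of HepG2 control minus LX2 control (x axis) with its 95% interval for the 30 measured genes, sorted; filled points have an adjusted p under 0.05, blue marks interferon-stimulated and orange MHC class I genes. The genes' median (dashed) is -1.45 and that of all symbols (dotted) -0.21; SAMD9 and SAMD9L lie furthest to the left, and MX2 and USP18 are the filled points to the right of 0.

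SAMD9 stood furthest apart, lower in HepG2 control at -6.46 (SE 0.19), with a limma adjusted p of 1.30e-08. SAMD9L was lower at -4.13 (limma adjusted p = 1.19e-07). Both HepG2 control arrays read at or under a log2 value of 4 for these genes, as they did for 10 of the 30, and no fold is given against such dim values. IFIT3 came next at -3.01, then IFI44 at -2.57, IFIT1 at -2.52, ERAP2 at -2.42, IFIT2 at -2.23, XAF1 at -2.20, EPSTI1 at -2.16 and HERC5 at -2.03. For every gene in these sentences the HepG2 control arrays lay below both LX2 control arrays, as for 51.7% of all symbols. The genes were listed by the size of that same difference, so this adds no support.

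The remaining calls had smaller differences. DDX60 was lower in HepG2 control at -1.88, RIGI at -1.78, IFIT5 at -1.74, HERC6 at -1.60, TAPBP at -1.54, B2M at -1.35, IRF7 at -1.34 and DTX3L at -1.21. A second probe set of B2M gave -0.69, and the probe sets of TAPBP gave -1.42 to -1.56. ISG15 was lower at -0.94, BST2 at -0.84 and IRF9 at -0.81. IFI44L, at -0.56 with a limma adjusted p of 0.00996, missed the threshold after quantile normalization (0.0563), after centring (0.214) and without LX2 control replicate 1 (0.0584) or 2 (0.0524) or HepG2 control replicate 1 (0.0673). ERAP1, at -0.55 with 0.0237, missed it after quantile normalization (0.267), after centring (0.327) and without LX2 control replicate 1 (0.136) or 2 (0.0607) or HepG2 control replicate 2 (0.151). MX2 ran the other way, 2.69-fold higher in HepG2 control at 1.43 (SE 0.17), with a limma adjusted p of 1.10e-04. USP18 was higher at 0.71 (limma adjusted p = 0.0155), and missed the threshold without LX2 control replicate 1 (0.0773) or 2 (0.0627) or HepG2 control replicate 2 (0.126).

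The wider pathway was read from lists of other genes. Of 166 listed, 87 were measured, and in LX2 CM272 raised 5 and lowered 3 by limma, with a median difference of 0.015, beside the 2.43% and 2.67% of all symbols given above. In HepG2 0 of the 87 passed, where 0.0134% of all symbols did. At an unadjusted p under 0.05 there were 4, where 10.1% of all symbols had one. For the difference between lines 0 passed, where 0.531% of all symbols did. Ligands could not be read, since 0 of 21 interferon genes had a symbol here. Of 17 receptor, JAK and STAT genes 8 were measured and 0 passed in LX2, where 5.11% of all symbols did.

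In the nucleic acid sensing route STING1 rose and TBK1 fell. STING1, the adaptor of cytosolic DNA sensing, read 6.25 and 6.17 in LX2 control, 7.33 and 7.07 in LX2 CM272, 4.60 and 4.56 in HepG2 control and 4.35 and 4.81 in HepG2 CM272, and it rose in LX2 by 0.99 (SE 0.18), with a limma adjusted p of 0.0215. TBK1, the kinase that STING activates, read 7.98 and 8.05 in LX2 control, 6.60 and 7.29 in LX2 CM272, 6.96 and 6.63 in HepG2 control and 6.61 and 6.48 in HepG2 CM272, and it fell in LX2, at -1.08 (SE 0.22) with 0.0327. They were the only 2 of 19 measured sensing genes of 25 listed to pass there, where 5.11% of all symbols passed in either direction. IRF3, the factor that TBK1 phosphorylates, read 6.5 and 6.66 in LX2 control, 7.40 and 7.45 in LX2 CM272, 6.69 and 6.73 in HepG2 control and 6.56 and 6.33 in HepG2 CM272, and rose in LX2 by 0.84 (SE 0.15) with 0.0192. IRF2BP2, a corepressor that binds IRF2, read 8.62 and 8.54 in LX2 control, 8.02 and 7.38 in LX2 CM272, 8.91 and 9.06 in HepG2 control and 8.73 and 8.49 in HepG2 CM272, and fell in LX2, at -0.88 with 0.0466, all limma adjusted p-values. Of 9 listed interferon regulatory factor genes 8 were measured and these 2 passed, beside the same 5.11% of all symbols. Treated and control LX2 arrays did not overlap for any of the 4 genes. Of all symbols 23.8% lay above both controls there and 25.4% below both. The 4 genes were named for passing the test on these same arrays, so the lack of overlap adds no support. The 2 treated arrays of TBK1 lay far apart.

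**Figure D4:**
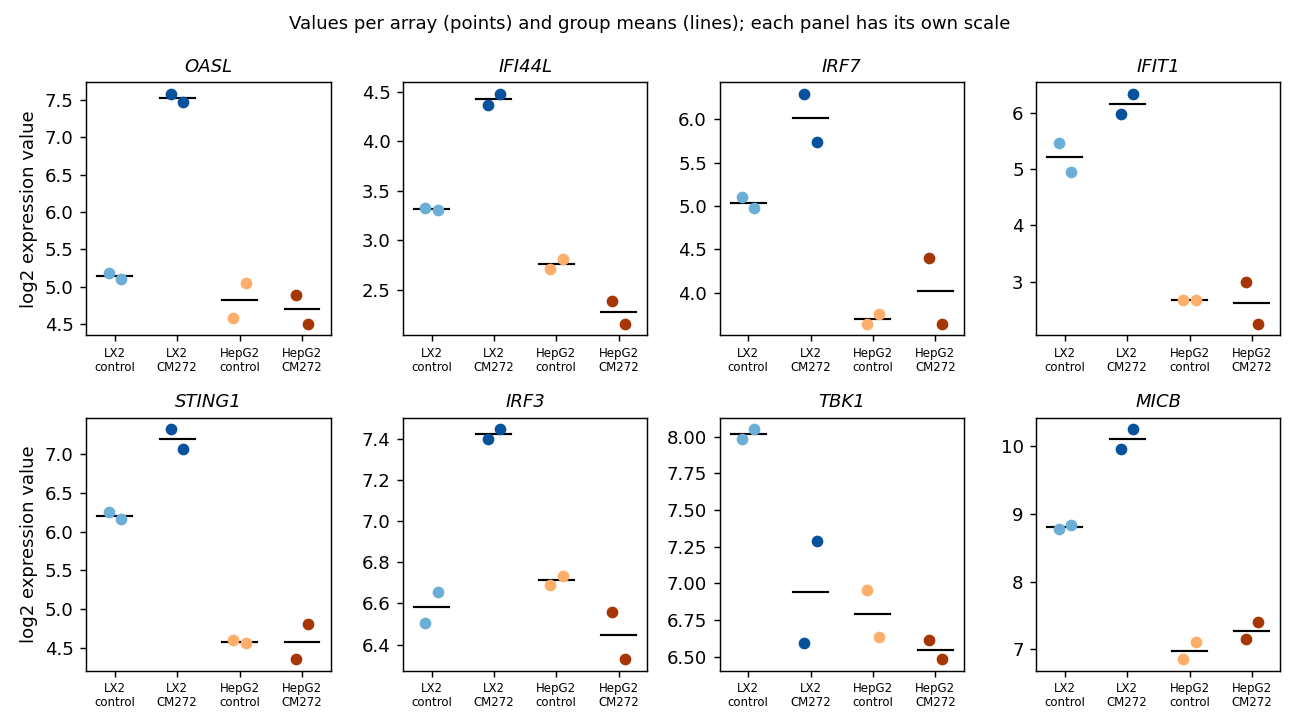
Log2 expression value (y axis, own scale in each panel) of 8 genes in the 4 groups; points are arrays and lines group means, n = 2. OASL, IFI44L, STING1, IRF3 and MICB are higher and TBK1 lower in the LX2 CM272 arrays than in the LX2 control arrays by the test, and IRF7 and IFIT1 have no overlap in LX2 but did not pass.

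Of 62 further interferon-stimulated genes 42 were measured, and 2 rose and 1 fell in LX2 by limma. Of all symbols 2.43% rose and 2.67% fell there, so these few calls are near the background. CXCL11, a chemokine that draws T cells, read 3.82 and 3.61 in LX2 control, 4.51 and 4.99 in LX2 CM272, 3.43 and 2.78 in HepG2 control and 3.30 and 3.26 in HepG2 CM272, with a rise of 1.04 (SE 0.24) and an adjusted p of 0.0409. SLFN5 rose by 0.65 (SE 0.15), with a limma adjusted p of 0.0437, from 8.63 and 8.61 to 9.13 and 9.40. TMEM62 went from 7.07 and 6.99 to 6.19 and 6.49, a fall at -0.69 with a limma adjusted p of 0.0399. MICB, a stress-induced class I-like ligand of the NKG2D receptor of killer cells, was the 1 of 9 measured further class I genes to pass. Of all symbols 5.11% passed in LX2 in either direction. MICB read 8.77 and 8.84 in LX2 control, 9.97 and 10.25 in LX2 CM272, 6.85 and 7.10 in HepG2 control and 7.15 and 7.40 in HepG2 CM272. The LX2 rise was 1.30 (SE 0.17), 2.46-fold, with a limma adjusted p of 0.007. Its other probe sets gave 1.08 to 1.53, and 2 of them held the same values in every array. MICA, its close relative, differed by 0.39 in LX2 (limma adjusted p = 0.189), and whether the probes tell the pair apart was not tested. Of the MHC class II pathway 1 of 12 genes was measured, CTSS, at 0.77 in LX2 (limma adjusted p = 0.0752).

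All 8 calls were lost in at least 1 fit that left out an array. Without LX2 control replicate 1 the limma adjusted p was 0.127 for STING1, 0.15 for IRF3, 0.162 for TBK1, 0.0754 for MICB, 0.16 for CXCL11, 0.206 for SLFN5, 0.219 for TMEM62 and 0.231 for IRF2BP2. Without LX2 control replicate 2 it was 0.176, 0.128, 0.206, 0.0835, 0.25, 0.241, 0.206 and 0.227 in the same order. MICB passed in all other alternatives, while the other 7 genes missed the threshold with array weights (0.0603 to 0.114) and with each line fitted alone (0.0641 to 0.138). With the mean of all probe sets IRF2BP2 was at 0.475, and with a replicate block IRF2BP2 (0.062), CXCL11 (0.061), SLFN5 (0.0744) and TMEM62 (0.071) missed it. After quantile normalization IRF2BP2 (0.0968), CXCL11 (0.089) and TMEM62 (0.053) did, and after array centring SLFN5 (0.0543) did. Without LX2 CM272 replicate 1, STING1 (0.0693), TBK1 (0.0744), CXCL11 (0.0551) and TMEM62 (0.0865) missed the threshold, and without LX2 CM272 replicate 2, CXCL11 (0.0905), SLFN5 (0.0523) and IRF2BP2 (0.0627) did. Leaving out single HepG2 arrays, which moves only the pooled spread, ended the calls of TBK1, SLFN5, TMEM62 and IRF2BP2 for each of the 4 HepG2 arrays and that of CXCL11 for HepG2 CM272 replicates 1 and 2.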

How the data were processed

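Total RNA of 8 samples (300 ng each) was hybridised to Affymetrix arrays, 1 per sample. The deposited values are log2 expression values per probe set, made by the authors with RMA, per the submitters' processing notes; the RMA version and the array's genome build are not given in the sources used here. RMA fits the arrays to a common distribution, which removes part of a shift shared by most genes, and compresses folds of dim probe sets. Of 48416 probe sets, 16098 had 1 gene symbol and 32318 had none in the platform annotation. The 14884 symbols were each read from 1 probe set, the one brightest on average across all arrays; 779 had a choice of several.

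The values were fitted as deposited, with a mean for each of the 4 groups, with limma 3.58.1 in R 4.3.3 (4 residual and 5.21 prior degrees of freedom), and Benjamini-Hochberg adjustment ran over all 14884 symbols with a threshold of 0.05, two-sided. No filter was set on brightness. The smallest p of an exact permutation test with 2 arrays in each group is 0.333, so none was used. Arrays give no counts, and their number limits the precision. Tables and promoter matches were made with Python 3.11.15 and pandas 2.3.3, figures with matplotlib 3.10.9, and the fit was tested on simulated data. The alternatives were filters at a log2 value of 4 or 6, the mean of all probe sets, quantile normalization, array centring, an intensity trend with robust variance, array weights, each line alone, a replicate block and leaving out each array.

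The members and the lists were chosen with earlier results of these data known. Every array's value is given for members past the threshold in any comparison and, in role lists with none past it in a treatment comparison, for the member with the largest treatment difference; of the other lists, genes past it in a treatment comparison are named, at most 4 per list.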

Additional observations from a re-analysis of the deposited data

Results flagged for a closer look

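The effect of CM272 on 2 of the 30 genes differed between the lines by the test of the difference itself, which is why they stand here. For OASL the HepG2 effect minus the LX2 effect was -2.50 on the log2 scale, with the 2 treated LX2 arrays above all other arrays and the HepG2 arrays overlapping. For IFI44L it was -1.59, with both treated arrays above both controls in LX2 and both below both controls in HepG2. Of all symbols, 23.8% lay above both controls in LX2 and 25.4% below both in HepG2. IFI44L read under a log2 value of 4 in every HepG2 array and in both LX2 control arrays, so its HepG2 shift is among dim values. The HepG2 difference of IFI44L did not pass its own limma test.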

How the results depend on the processing

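With 2 arrays a group, counts of calls moved with single arrays. Of 43 differences of genes that passed or were singled out, 0 reversed under the alternatives; the differences of the other genes were not followed, and such small ones can change sign, as that of RIGI in LX2 would without LX2 CM272 replicate 2. In LX2, 2 of the 30 genes rose, and leaving out 1 array gave 1 to 4. The count of falls was 0, with 1 (DTX3L) after a filter at a log2 value of 6, 1 with an intensity trend and robust variance, and 0 to 1 leaving out 1 array. In HepG2 the count stayed at 0 in each direction under every alternative. Those fits called only 0 to 5 of all symbols, in either direction together. The count could therefore hardly move, and its staying at 0 says little about the 30 genes. For the difference between lines, 2 genes passed as lower, and 1, OASL, after the filter at log2 6 (19 of the 30 genes left). OASL met that filter only through the LX2 CM272 arrays, so its call there is no support. Between untreated lines, 23 genes were lower and 2 higher. After the filter at log2 6, 15 were lower, where 71.3% of all symbols left passed in either direction. SAMD9, SAMD9L and XAF1 are among the genes that met that filter only through the LX2 arrays, where they are high. Calls of such genes under it are no support for their being lower in HepG2. The median of that comparison was -1.45, and it was -1.16 after quantile normalization and -1.12 after array centring. The replicate numbers showed little sign of pairing: deviations of same-numbered arrays from their group means correlated at 0.055 in LX2 and 0.052 in HepG2. That does not show that the cultures were unpaired. With a replicate block, OASL and IFI44L still passed in LX2, all symbols called there went from 760 to 368, and 1 gene, OASL, passed for the difference between lines. Over single genes and alternatives, 595 values kept their direction and their side of the threshold, 87 lost their call and 5 gained one.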
